A study of Mus musculus with 12 samples.

Results

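The circadian clock genes described here are 10 genes of the molecular clock and of its direct transcriptional output, Arntl, Clock, Cry1, Cry2, Per2, Per3, Nr1d1, Nr1d2, Dbp and Tef, measured in the mammary gland of pregnant mice. They were found by gene symbol, and each of the 10 matched exactly 1 of the 21956 genes in the protein-coding tables. The values are FPKM, fragments per kilobase of transcript scaled to the mapped total of a library, so they are per length and can be set side by side between genes. A scaled FPKM is the FPKM of a gene divided by a factor for its library. All 10 genes passed the minimum for testing, a mean of at least 1 scaled FPKM over all 12 libraries, as did 11770 genes in all.

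The tissue was the 4th inguinal gland, taken on day 17 of pregnancy from mice of the outbred ICR stock. Control, Met and Met-Met had 4 libraries each. From day 0 of pregnancy, Met mice ate a diet deficient in methionine and received methionine intraperitoneally, at 35% of the content of the control diet. Met-Met mice had the same regimen, but 25% of the injected methionine was given as methionyl-methionine, a dipeptide. The labels name a control diet, do not say whether Control mice were injected, and give no hour of collection. Met against Control and Met-Met against Control therefore cannot tell apart the amount of methionine, the diet and the injection. By the labels, Met-Met against Met differs in the dipeptide. Whether the groups were collected at the same hour is not known. A difference in hour between groups cannot be told apart from the treatment in any comparison, including that of Met-Met with Met. Nor do the labels say that each library came from its own mouse, so the spread behind each p-value is that of these samples and may be technical. Values are means ± SD with n = 4 per group unless given per library.

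The clock is a feedback loop. The proteins of Arntl (also called Bmal1) and Clock bind DNA as a pair at E-boxes and switch on the Per and Cry genes, whose proteins return to the nucleus and inhibit the pair. The pair also drives Nr1d1 and Nr1d2, which encode the nuclear receptors REV-ERBα and REV-ERBβ. These repress Arntl at ROR elements (ROREs), where the ROR receptors activate it. Dbp and Tef encode transcription factors of the PAR bZIP family, which pass the rhythm on to genes with D-boxes, and Dbp is itself a target of the pair. Most tissues run this loop, and in the mammary gland clock transcripts are known to differ between pregnancy and lactation.

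Promoter sequences from RefSeq (build GRCm38.p6, 250 bases before and 50 after each start site) were searched on both strands for the elements of this loop, and those printed carry a match in genes described below. The elements were the E-box with the letters CACGTG, the E-box variant with the letters CACGTT, the D-box with the letters TTATGTAA or, at its centre, TTACGTAA, and the RORE core with the letters TAGGTCA. No match in these genes overlapped another, although the E-box and its variant share 5 of 6 letters. Of 32851 windows in the table, 7.15% held the E-box, 4.68% its variant, 1.06% a D-box and 2.61% the RORE core. Among the 10 clock genes, 9 had a window, and 6 of these held a match, Arntl, Cry1, Cry2, Nr1d1, Per3 and Tef. These 9 genes had 13 windows. The share of all genes with a match to any of the elements was not computed, so the 6 of 9 has no matching share beside it. The Arntl match lay 30 bases after the start (chr7:113207530-113207559, + strand). In Cry1 the variant lay 79 and the E-box 60 bases before the start (chr10:85185079-85185153, − strand), and in Nr1d1 the variant lay 28 bases before it (chr11:98775380-98775435, − strand). Per3 held a pair of D-boxes, 205 and 158 bases before its start (chr4:151044796-151044885, − strand). Tef has 2 windows in the table, each with an E-box. The one printed lay 127 bases before the start of its window's transcript (chr15:81802526-81802571, + strand), and the other 138 bases before the other start (window chr15:81811164-81811463, + strand). For comparison, Nfil3, a repressor that binds D-boxes, held a RORE core 12 bases before its start (chr13:52981040-52981062, − strand). The sequences read 5′ to 3′ on the strand of the gene, with matches in capitals, so that a match on the other strand shows the reverse complement of the letters above. A match is a description of these letters and not a site shown to be bound.
Arntl: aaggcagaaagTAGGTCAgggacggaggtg
Nfil3: gcgctcggaacTGACCTActaac
Cry1: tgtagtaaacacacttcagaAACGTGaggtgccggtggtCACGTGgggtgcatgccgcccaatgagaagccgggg
Nr1d1: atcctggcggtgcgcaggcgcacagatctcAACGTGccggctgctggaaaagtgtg
Per3: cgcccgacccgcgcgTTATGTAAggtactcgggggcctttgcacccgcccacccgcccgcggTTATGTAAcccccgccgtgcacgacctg
Tef: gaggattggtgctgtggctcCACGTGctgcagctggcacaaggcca

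Depth and tissue makeup varied among libraries. Relative depth, estimated from the size of a step of 1 read in low values, ran from 0.967 times that of Control 4 in Met 1 to 1.27 times in Met 3. The numbers of reads are unknown, so no counting interval can be given. The 8 luminal epithelium markers averaged 6.01 to 6.66 on the log2 scale in all 12 libraries, and none was listed at 0. The 12 adipocyte markers averaged 6.65 to 6.96 (Control), 5.57 to 5.89 (Met) and 4.75 to 6.16 (Met-Met). The 8 fibroblast markers averaged 6.09 to 6.51, 5.22 to 5.37 and 5.68 to 6.28 in the same order, and none of these 20 markers was listed at 0. The marker means of 3 other cell types were also lower in Met than in Control. Single markers did not all follow these means. At an adjusted p under 0.05 in limma, 8 of 12 adipocyte markers were lower in Met than in Control and 1, Cfd, higher. In the same comparison 3 of 8 myoepithelium markers were lower and 1, Trp63, higher. Of the fibroblast, macrophage and endothelium markers, 6 of 8, 4 of 6 and 3 of 6 were lower and none higher. In Met-Met against Met, 5 of 8 fibroblast and 3 of 6 macrophage markers were higher and none lower. There 3 of 8 myoepithelium markers were higher and 1 lower, and of the 12 adipocyte markers 1 was higher and 1 lower. The 8 myoepithelium markers averaged 4.56 to 4.82, 4.30 to 4.50 and 4.72 to 4.78 in the 3 groups, the 6 macrophage markers 3.94 to 4.27, 3.53 to 3.86 and 3.79 to 4.12, and the 6 endothelium markers 3.71 to 3.77, 3.33 to 3.59 and 3.23 to 3.74. None of these was listed at 0. Markers of B cells, 6 in number, had their highest means in Control 1, 2 and 3 (2.86 to 3.36), lower ones in Met-Met 1, Met-Met 3 and Met 4 (1.501 to 1.54), and means of no more than 0.410 in the rest. T cell markers were also highest in Control 1, 2 and 3 (3.25 to 3.37). Met 2 alone had a high mean of skeletal muscle markers, 5.16, where no other library exceeded 0.858, and of skin keratinocyte markers, 2.51, where no other exceeded 0.979. The noncoding RNA Gm26917 was at 72.3 to 99.2 FPKM in 9 libraries and at 9013 to 9305 in the remaining 3, which were Met 3, Met-Met 2 and Met 4. In bulk RNA, fewer cells of a type and less RNA per cell cannot be told apart.

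In Met against Control, 3 of the 10 clock genes rose (Cry1, Per2 and Arntl) and 1 fell (Nr1d1), at an adjusted p under 0.05 in the limma fit. Of all 11770 genes tested, 28.2% were called in that comparison, 13.6% higher and 14.6% lower. The same 4 genes, and no other clock gene, had Met and Control libraries that did not overlap, as did 26.8% of all genes. In Met-Met against Control, Cry1 rose and Nr1d1 and Dbp fell, 3 of 10, beside 20.2% of all genes (10.9% higher, 9.3% lower). Their libraries and those of Nr1d2 did not overlap between these groups, as for 27% of all genes. Between the methionine groups, Cry1 and Per2 were lower in Met-Met than in Met and none was higher, 2 of 10, beside 11.6% (5.94% higher, 5.7% lower). Per2 and Arntl did not overlap there, beside 16.3%. The median log2 fold change of the 10 genes was 0.06, −0.12 and −0.32 in these 3 comparisons, beside 0.01, −0.00 and 0.00 over all tested genes. Both comparisons with Control share the Control libraries. Fold changes are on the scale of log2(scaled FPKM + 1), which understates the change of low genes.

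**Figure D1:**
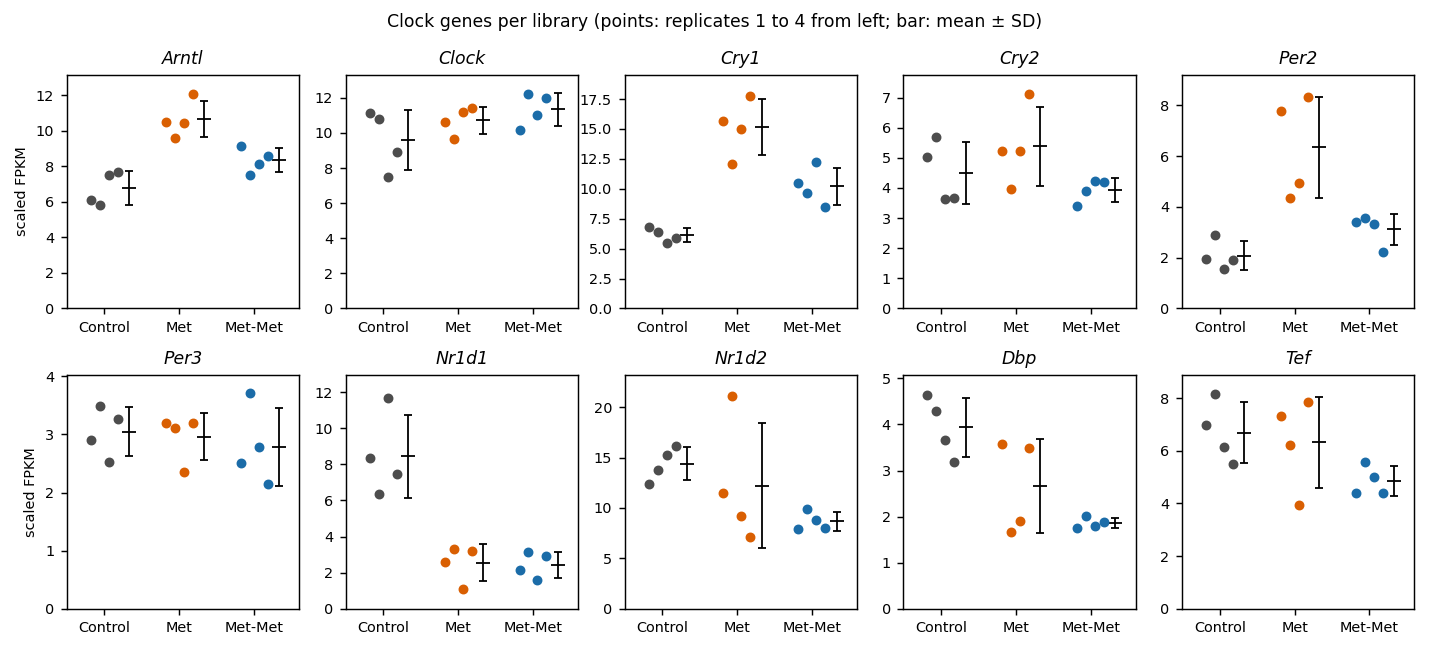
Level of each of the 10 clock genes in each library (y axis, scaled FPKM, from 0; x axis, group), with points for replicates 1 to 4 from left to right and bars for mean ± SD. Nr1d1 is at 6.36 or more in every Control library and at 3.33 or less in the other 8, whereas Cry1 is at 6.79 or less in Control and at 8.50 or more elsewhere.

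Arntl, a partner in the activating pair, rose in Met. Its levels in Control were 6.08, 5.82, 7.51 and 7.70 scaled FPKM, in Met 10.5, 9.60, 10.4 and 12.1, and in Met-Met 9.14, 7.52, 8.12 and 8.59. Every Met library lay above every Control and every Met-Met library, and the Met-Met libraries overlapped the upper part of the Control range. The mean rose from 6.78 ± 0.965 to 10.7 ± 1.03, a log2 fold change of 0.59 (SE 0.10, adjusted p = 0.00189). Met-Met averaged 8.34 ± 0.688. Its log2 difference from Control was 0.27 (adjusted p = 0.0809) and from Met −0.32 (adjusted p = 0.0618), so neither passed. Without Control 4 the difference of Met-Met from Control was 0.33 and passed (adjusted p = 0.0482).

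The rise of Arntl depended on how its transcripts were combined. The tables divide the reads of a gene among its transcripts, and 4 are listed for Arntl. ENSMUST00000047321 carried 67.0% of the gene's mean, from 29.8% in one library to 98.6% in another. ENSMUST00000210074 stood at 3.38 in Met 2, 4.05 in Met 4, 3.76 in Met-Met 3 and 3.00 in Met-Met 4, and at no more than 0.840 in the other 8 libraries. Taking only the transcript with the highest mean, the log2 fold change of Arntl in Met against Control was 0.08 (adjusted p = 0.899). The split between transcripts is an estimate. The SD of ENSMUST00000047321 was 2.58 in Met and 2.53 in Met-Met, against 1.03 and 0.688 for the gene.

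**Figure D2:**
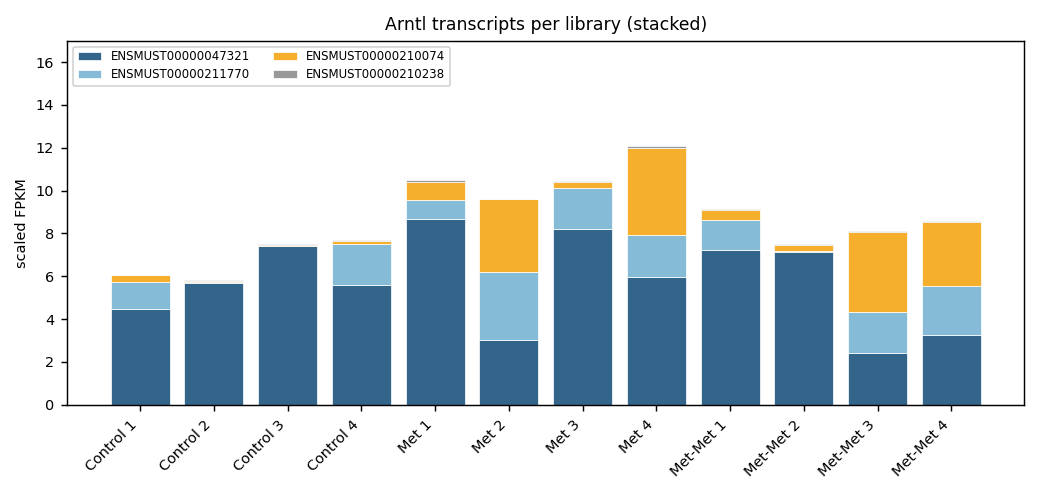
Stacked levels of the 4 listed Arntl transcripts in each of the 12 libraries (y axis, scaled FPKM, from 0). The total is at 9.60 or more in the 4 Met libraries and at 9.14 or less elsewhere, while the share of ENSMUST00000210074 is large in only 4 libraries, Met 2, Met 4, Met-Met 3 and Met-Met 4.

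Clock, the partner of Arntl, passed in no comparison. Control libraries were at 11.2, 10.8, 7.50 and 8.90, Met libraries at 10.6, 9.65, 11.2 and 11.4, and Met-Met libraries at 10.15, 12.23, 11.01 and 11.998. The groups overlapped throughout. The log2 difference was 0.16 in Met (95% interval −0.09 to 0.40, adjusted p = 0.325) and 0.23 in Met-Met (−0.01 to 0.48, adjusted p = 0.164).

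Cry1, a repressor of the pair, rose in both methionine groups and was lower in Met-Met than in Met. It was at 6.79, 6.40, 5.46 and 5.93 in Control, at 15.7, 12.1, 15.03 and 17.8 in Met, and at 10.5, 9.61, 12.2 and 8.50 in Met-Met. All 8 libraries of the methionine groups lay above all Control libraries, and Met and Met-Met overlapped through Met 2 and Met-Met 3. Met was 2.46 times Control (log2 fold change 1.17, SE 0.12, adjusted p = 1.58e-04) and Met-Met 1.66 times Control (0.64, SE 0.12, adjusted p = 0.00505). Met-Met was lower than Met (−0.53, SE 0.12, adjusted p = 0.0197). That last difference was not called without Met 1 (adjusted p = 0.0518) or without Met-Met 4 (adjusted p = 0.0614). Without the 3 libraries of high Gm26917 it was −0.39 (adjusted p = 0.160). On FPKM as deposited, where the median of all genes moved by −0.25 in Met and −0.12 in Met-Met, it was −0.36 (adjusted p = 0.163) and the difference of Met-Met from Control 0.52 (adjusted p = 0.0510).

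Cry2, its paralogue, did not pass in any comparison. Its levels were 3.63 to 5.69 in Control, 3.96 to 7.12 in Met and 3.40 to 4.24 in Met-Met, and the groups overlapped. The ratio of Cry1 to Cry2 within a library was 1.40 ± 0.213 in Control, 2.86 ± 0.250 in Met and 2.61 ± 0.468 in Met-Met, and no Control library reached the lowest ratio of the methionine groups (2.03).

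Per2, whose protein works in the repressor complex with the CRY proteins, was the lowest clock gene in Control and had the largest fold rise in Met. Control stood at 1.95, 2.88, 1.54 and 1.93 scaled FPKM, Met at 7.77, 4.36, 4.94 and 8.32, and Met-Met at 3.41, 3.55, 3.33 and 2.23. The Met libraries lay above all others, and Met 1 and Met 4 stood apart from Met 2 and Met 3. Met averaged 6.35 ± 1.99 against 2.07 ± 0.571 in Control, a ratio of 3.06 (log2 fold change 1.23, SE 0.20, adjusted p = 0.00122). Met-Met averaged 3.13 ± 0.609, lower than Met (−0.80, SE 0.20, adjusted p = 0.0228) and not distinguished from Control (0.43, 95% interval 0.00 to 0.86, adjusted p = 0.140). The difference between Met-Met and Met was not called without Met 1 (adjusted p = 0.0642), without Met-Met 4 (adjusted p = 0.0696) on FPKM as deposited (adjusted p = 0.0700), or without the libraries of high Gm26917 (adjusted p = 0.0826).

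Per3, a Per gene that the loop can run without, stayed within 2.15 to 3.71 scaled FPKM in all 12 libraries. Its log2 difference was −0.03 in Met (95% interval −0.32 to 0.26, adjusted p = 0.896) and −0.11 in Met-Met (−0.39 to 0.18, adjusted p = 0.612). The ratio of Per2 to Per3 was 0.590 to 0.827 in Control, 1.40 to 2.61 in Met and 0.958 to 1.36 in Met-Met, so the 3 groups did not overlap in this ratio.

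Nr1d1 fell in both methionine groups. Control libraries stood at 8.33, 6.36, 11.7 and 7.44, Met libraries at 2.59, 3.33, 1.10 and 3.20, and Met-Met libraries at 2.14, 3.14, 1.59 and 2.92. Every library of the methionine groups lay below every Control library, and the Met-Met libraries lay within the range of Met. Met was 0.302 times Control (log2 fold change −1.44, SE 0.24, adjusted p = 0.00166) and Met-Met 0.290 times Control (−1.45, SE 0.24, adjusted p = 0.00255). The difference between Met-Met and Met was −0.01 with a 95% interval of −0.54 to 0.51 (adjusted p = 0.979), which does not show that they were alike.

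Nr1d1 overlaps Thra, the thyroid hormone receptor α gene, on the chromosome. The strand setting of the authors' quantification is not given in the sources used here. Reads in the stretch shared by Nr1d1 and Thra therefore cannot be told apart. Thra was at 9.89 ± 1.29 in Control, 8.06 ± 0.850 in Met and 6.41 ± 1.11 in Met-Met. It fell in Met-Met (log2 fold change −0.56, adjusted p = 0.00837) and did not pass in Met (−0.26, adjusted p = 0.119). The same limit holds for Dbp, which overlaps Sphk2 (9.59, 10.7 and 9.70 in the 3 groups), and for Per3, which overlaps Uts2 (listed at 0 in 11 libraries).

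Nr1d2, the paralogue of Nr1d1, was the highest clock gene in Control, at 12.4, 13.8, 15.2 and 16.1. Met stood at 11.5, 21.1, 9.17 and 7.11, and Met-Met at 7.96, 9.89, 8.84 and 7.99. Met-Met lay below Control in every library, whereas in Met 3 libraries lay below Control and Met 2, the library with skeletal muscle markers, lay above it. Neither difference passed (Met −0.32, adjusted p = 0.340; Met-Met −0.67, SE 0.24, adjusted p = 0.0653). Without Met 2 the change in Met was −0.60 (adjusted p = 0.0128) and that in Met-Met, in the same fit, was −0.67 (adjusted p = 0.00654). On FPKM as deposited both passed (−0.61, adjusted p = 0.0405, and −0.80, adjusted p = 0.0260). The change in Met-Met passed in 5 of 24 alternatives, with adjusted p down to 0.00361. These included the fits without Met 4, of the 8 libraries of that comparison alone, and without the 3 libraries of high Gm26917. Without the 3 libraries of high Gm26917 the change in Met was 0.12 (adjusted p = 0.713), with Met 1 and Met 2 the Met libraries left. Met-Met against Met was −0.35 (adjusted p = 0.358) with all libraries and −0.84 (adjusted p = 0.0451) in that fit.

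**Figure D3:**
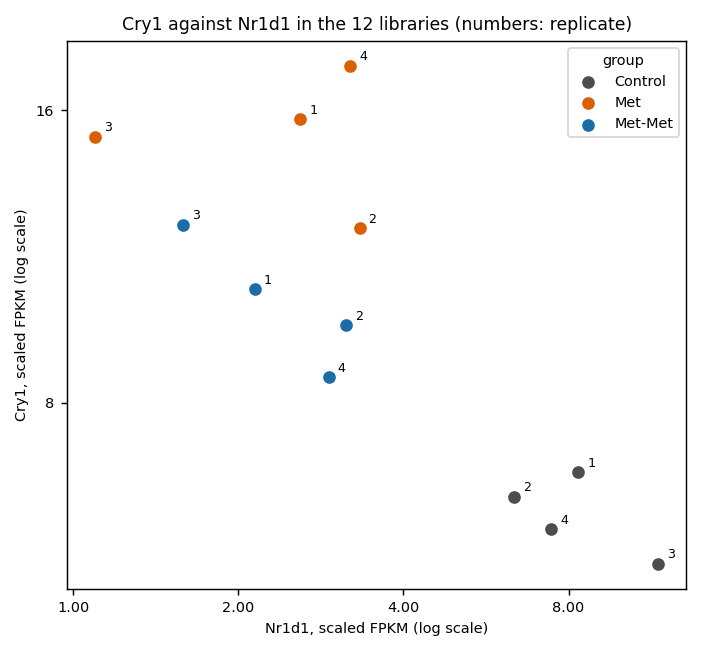
Level of Cry1 (y axis) against that of Nr1d1 (x axis) in the 12 libraries, both in scaled FPKM on log axes, coloured by group and numbered by replicate. Control libraries sit at high Nr1d1 and low Cry1, and no library of the methionine groups enters that region.

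Within a library, the ratio of Cry1 to Nr1d1 needs no scaling between libraries. It was 0.772 ± 0.223 in Control, 7.24 ± 4.44 in Met and 4.64 ± 2.23 in Met-Met, with a highest Control value of 1.01 and a lowest value of 2.91 in the methionine groups. Cry1 lay above and Nr1d1 below Control in every methionine library, so this separation follows from those values and is no further result. Nr1d2 over Nr1d1 was 1.31 to 2.17 in Control, 2.22 to 8.37 in Met and 2.74 to 5.57 in Met-Met. The ratios of Met and Met-Met overlapped in both cases. For these and the other ratios given, the share of all gene pairs that do not overlap between groups was not computed.

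Dbp, an output factor that the pair drives, fell in Met-Met. It stood at 4.63, 4.29, 3.66 and 3.20 in Control, at 3.57, 1.68, 1.91 and 3.50 in Met, and at 1.76, 2.01, 1.79 and 1.87 in Met-Met. Met-Met libraries lay close together and below all Control libraries, while in Met a pair of libraries lay within the Control range and the other pair near Met-Met. Met-Met was 0.471 times Control (log2 fold change −0.78, SE 0.17, adjusted p = 0.00967). Met against Control was −0.47 (adjusted p = 0.0620), and it passed without Control 4 (adjusted p = 0.0484), without Met 1 (0.0326), without Met 4 (0.0264), on FPKM as deposited (−0.70, adjusted p = 0.0190), or with the highest transcript alone (−0.50, adjusted p = 0.0233). That transcript, ENSMUST00000080885, carried 80.0% of the mean of Dbp and stood at 2.62 to 3.98 in Control and 1.68 to 2.18 in Met, without overlap. The split among Met libraries lay in ENSMUST00000211513, which was at 1.54 in Met 1 and 1.31 in Met 4 and listed at 0 in Met 2 and Met 3. Met-Met against Met was −0.32 (95% interval −0.69 to 0.06, adjusted p = 0.252).

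Tef, a PAR bZIP factor like Dbp, did not pass in any comparison. Control ran from 5.49 to 8.15, Met from 3.94 to 7.84 and Met-Met from 4.38 to 5.59, with log2 differences from Control of −0.09 (adjusted p = 0.733) and −0.39 (adjusted p = 0.126). The difference of Met-Met from Control passed without Met 3 (adjusted p = 0.0438), in the 8 libraries of that comparison alone (0.0454), and without the 3 libraries of high Gm26917 (−0.45, adjusted p = 0.0424). Arntl over Dbp was 1.31 to 2.41 in Control, 2.94 to 5.73 in Met and 3.73 to 5.20 in Met-Met. Control did not reach the values of the methionine groups in this ratio of an activator to its target.

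**Figure D4:**
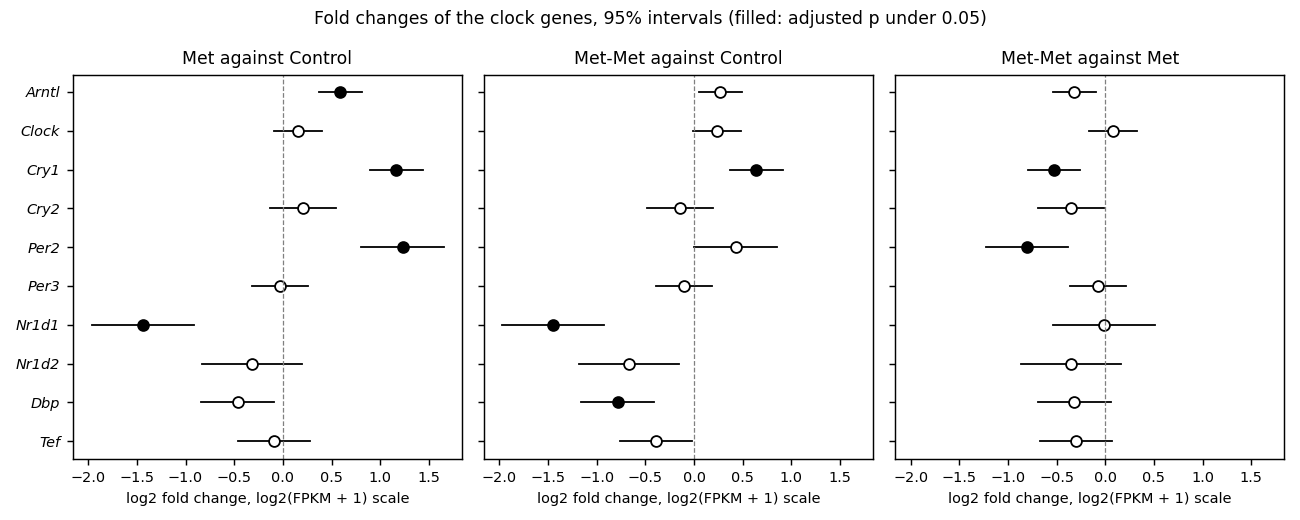
Log2 fold changes of the 10 clock genes in the 3 comparisons (x axis, log2(FPKM + 1) scale), with 95% intervals from limma and filled points where the adjusted p over all 11770 genes was under 0.05. Filled points are 4 in Met against Control, 3 in Met-Met against Control and 2 in Met-Met against Met, and in the last comparison both lie below 0.

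The order of levels changed with the group. In Control the highest was Nr1d2 at 14.4 ± 1.64, followed by Clock at 9.59 ± 1.70 and Nr1d1 at 8.45 ± 2.29, and the lowest was Per2. In Met, Cry1 led at 15.1 ± 2.35 and Nr1d1 was last at 2.55 ± 1.02. In Met-Met, Clock led at 11.3 ± 0.959 and Dbp was last at 1.86 ± 0.114. Some neighbours in these orders lay closer together than their SD, as Arntl at 6.78, Tef at 6.69 and Cry1 at 6.15 in Control, or Clock and Arntl, both at 10.7, in Met.

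Results against Control rest on Control libraries that differ from the others in markers. Met and Met-Met libraries also differed, without overlap in their fibroblast and myoepithelium marker means, and no fit took these markers into account. With the adipocyte marker mean as a covariate, 1 clock gene was called in Met and 0 in Met-Met, beside 181 and 14 of all 11770 genes. In Met-Met 4 clock genes had an unadjusted p under 0.05 in limma, beside 1685 of all genes. The values were then −1.71 for Nr1d1 in Met (adjusted p = 0.0586) and −1.80 in Met-Met (adjusted p = 0.147), 1.19 for Cry1 in Met (adjusted p = 0.0294) and 0.67 in Met-Met (adjusted p = 0.254), 0.62 for Arntl in Met (adjusted p = 0.0923), 0.96 for Per2 in Met (adjusted p = 0.138) and −0.84 for Dbp in Met-Met (adjusted p = 0.303). All 7 of these kept their direction. The 6 libraries without lymphocyte markers leave 1 Control library, which is assumed to vary like the others. That fit cannot show whether a difference from Control holds, and effect sizes alone are given here. There Nr1d1 was −1.40 in Met and −1.07 in Met-Met, and Cry1 was 1.13 and 0.53. Per2 was 1.16 in Met, Arntl 0.36 in Met and Dbp −0.51 in Met-Met. Beyond these fits, the part of the cell types in the results was not tested.

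The rest of the core clock was followed through a list of 10 further genes, of which 8 passed the minimum and Arntl2 and Rorb did not. In Met against Control 5 of the 8 rose and none fell, and the median log2 difference of the 8 was 0.74. In Met-Met against Control 1 of 8 rose and none fell, and in Met-Met against Met 2 of 8 fell and none rose. These shares stand beside 28.2%, 20.2% and 11.6% of all genes.

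Npas2, which can take the place of Clock beside Arntl, rose from 7.15 ± 1.79 in Control to 13.7 ± 2.42 in Met (log2 fold change 0.86, SE 0.15, adjusted p = 0.00202) and was at 9.67 ± 0.510 in Met-Met. The third Per gene, Per1, was at 12.6, 14.8, 13.2 and 15.3 in Control, at 33.4, 30.6, 25.7 and 22.6 in Met, and at 21.8, 11.4, 8.86 and 13.2 in Met-Met. Met lay above all other libraries, and Met-Met 1 stood above the remaining Met-Met libraries. Per1 rose in Met (0.94, SE 0.21, adjusted p = 0.00721) and was lower in Met-Met than in Met (−1.03, SE 0.21, adjusted p = 0.0111). With its highest transcript alone neither was called (0.87, adjusted p = 0.459, and −1.17, adjusted p = 0.378).

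Nfil3 was at 2.46, 2.34, 3.16 and 4.60 in Control, at 11.1, 10.8, 10.1 and 9.38 in Met, and at 3.31, 4.29, 5.13 and 4.95 in Met-Met. All Met libraries lay above every other library, and Met-Met overlapped Control. It rose in Met (1.48, SE 0.16, adjusted p = 1.73e-04) and was lower in Met-Met than in Met (−1.07, SE 0.16, adjusted p = 0.00286). Its log2 difference from Control in Met-Met was 0.41 (adjusted p = 0.0920).

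Rora, whose receptor activates at ROREs, rose in Met, from 14.4 ± 4.12 to 26.1 ± 8.11 (0.80, SE 0.23, adjusted p = 0.0254), with Met 4 at 15.2 inside the Control range. Without Control 1 (adjusted p = 0.0780), Control 2 (0.0716), Met 1 (0.0574), Met 2 (0.0655) or Met 3 (0.0640) that rise was not called.

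Hlf, the third PAR bZIP factor, rose in both groups, from 19.4 ± 1.79 in Control to 28.0 ± 2.32 in Met (0.51, SE 0.12, adjusted p = 0.00912) and 29.7 ± 4.89 in Met-Met (0.58, SE 0.12, adjusted p = 0.00702). Its call in Met was lost on FPKM as deposited (0.21, adjusted p = 0.139). Tef and Dbp, of the same family, did not rise. Bhlhe40 and Bhlhe41, repressors that compete for E-boxes, and Ciart, another repressor of the pair, passed in no comparison. The 6 libraries without lymphocyte markers leave 1 Control library, so that fit cannot show whether differences of these 8 genes from Control hold. With the adipocyte covariate 1 was called in Met (Nfil3, 1.62, adjusted p = 0.0238) and none in Met-Met, beside 181 and 14 of all genes. In Met-Met against Met, Nfil3 and Per1 were called with that covariate. Adipocyte marker means overlapped between Met and Met-Met, whereas fibroblast and myoepithelium means did not and were used in no fit.

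**Figure D5:**
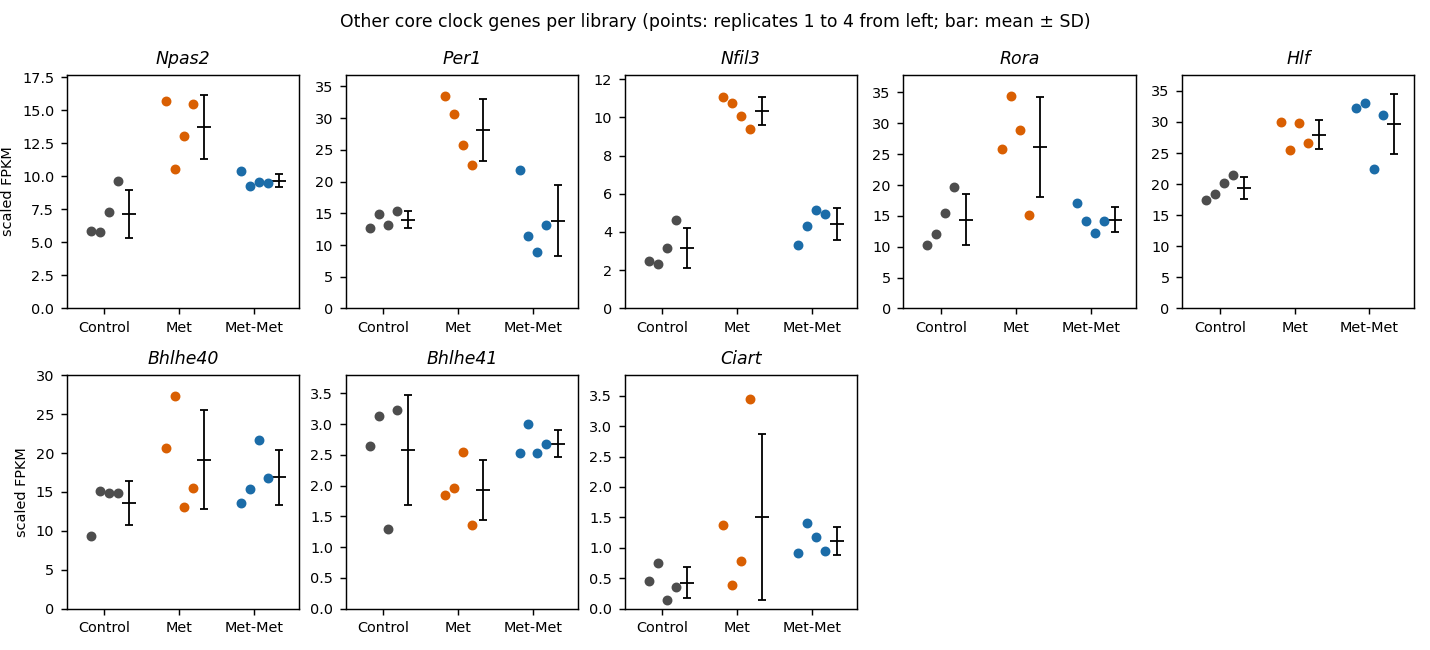
Levels of the 8 further core clock genes in each library (y axis, scaled FPKM, from 0; x axis, group), with points for replicates 1 to 4 from left to right and bars for mean ± SD. Per1 and Nfil3 are higher in all 4 Met libraries than in any other library, and Hlf is higher in both methionine groups than in Control.

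Of 13 tested regulators of clock protein stability and activity, 2 rose and 1 fell in Met, 0 were called in Met-Met against Control, and 1 was higher and 2 lower in Met-Met than in Met, beside 28.2%, 20.2% and 11.6% of all genes. At an unadjusted p under 0.05 in limma the count in Met-Met against Control was 1 of 13, beside 4112 of all 11770 genes. Nampt, which makes the NAD that sirtuins use, rose from 27.7 in Control to 56.5 in Met (0.95, SE 0.18, adjusted p = 0.00310) and was at 33.6 in Met-Met (−0.68 against Met, adjusted p = 0.0316). Sirt1, a deacetylase that acts on the clock, was at 5.77, 7.997 and 4.49 in Control, Met and Met-Met. It was lower in Met-Met than in Met (−0.75, adjusted p = 0.0156). With its highest transcript alone that difference was 1.03 and was not called (adjusted p = 0.478). Csnk1a1, a kinase of the casein kinase 1 family, went from 79.7 to 94.7 in Met (0.24, adjusted p = 0.0153). On FPKM as deposited its change had the opposite sign and was not called (−0.0653, adjusted p = 0.570). Nono, an RNA-binding partner of PER proteins, went from 79.0 to 67.3 in Met (−0.23, adjusted p = 0.0386) and was at 81.8 in Met-Met (0.28 against Met, adjusted p = 0.0330). The calls of Nono and that of Nampt between the methionine groups were lost when 1 of 6 or more single libraries was left out, with adjusted p up to 0.106 and 0.0829. With the adipocyte covariate 0 of the 3 regulators called in Met remained (Nampt 0.95, adjusted p = 0.128). Of the 3 called in Met-Met against Met, 2 remained, Nono and Sirt1.

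Among 17 genes known as clock-controlled outputs, 7 rose and 1 fell in Met, 3 rose and 3 fell in Met-Met, and 6 were lower and none higher in Met-Met than in Met. Of all genes, 13.6% rose and 14.6% fell in Met, 10.9% rose and 9.3% fell in Met-Met, and 5.7% were lower and 5.94% higher in Met-Met than in Met. Tsc22d3, also a target of glucocorticoids, was at 41.2, 40.3, 48.8 and 35.6 in Control, at 106, 88.5, 94.0 and 107 in Met, and at 51.6, 35.7, 38.3 and 37.3 in Met-Met. Met stood alone, above all other libraries (1.24, SE 0.13, adjusted p = 1.30e-04 against Control; −1.27, adjusted p = 5.48e-04 for Met-Met against Met). Klf9, a Krüppel-like factor that glucocorticoids also induce, went from 22.9 in Control to 44.0 in Met and was at 20.7 in Met-Met (0.90, adjusted p = 0.00552, and −1.05, adjusted p = 0.00632). Fmo2, a monooxygenase, was at 7.34, 15.5 and 4.24 in the 3 groups (0.89 in Met, adjusted p = 0.0113, and −1.56 for Met-Met against Met, adjusted p = 0.00225).

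Usp2, a deubiquitinase, rose from 3.32 to 7.38 in Met (0.93, adjusted p = 0.00142) and to 5.31 in Met-Met (0.54, adjusted p = 0.0271). Tspan4, a tetraspanin, rose from 8.33 to 19.6 and 12.7 (1.12, adjusted p = 7.55e-04, and 0.54, adjusted p = 0.0354). Wee1, a kinase that holds back mitosis, rose from 5.49 to 8.70 in Met (0.57, adjusted p = 0.0130), and Lonrf3 from 0.886 to 2.16 (0.73, adjusted p = 0.00240). The call of Wee1 was lost on FPKM as deposited (0.30, adjusted p = 0.145). Por, the electron donor of cytochrome P450 enzymes, fell from 28.1 to 17.6 in Met (−0.65, adjusted p = 0.00143) and 19.8 in Met-Met (−0.49, adjusted p = 0.00878). With the adipocyte covariate neither call of Por remained (−0.34, adjusted p = 0.222, and −0.0949, adjusted p = 0.821). In that fit Tsc22d3 alone of the 8 outputs called in Met had an adjusted p under 0.05 (1.13, adjusted p = 0.0334), and the 6 outputs called in Met-Met against Control had adjusted p from 0.255 to 0.821. The Met-Met calls of Usp2 and Tspan4, and those of Leo1 (0.49, adjusted p = 0.0306) and Fmo2 (−0.67, adjusted p = 0.0482), were each lost when 1 of several single libraries was left out, with adjusted p up to 0.104. The same holds for Cdkn1a (−0.73, adjusted p = 0.0230), Lonrf3 (−0.48, adjusted p = 0.0356) and Tspan4 (−0.58, adjusted p = 0.0387), which were lower in Met-Met than in Met. With the highest transcript alone that difference of Tspan4 was −0.0743 (adjusted p = 0.894).

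For the PAR bZIP factors, 5 of 8 listed target genes could be tested. In Met 1 rose and 2 fell, in Met-Met 2 fell, and 1 was higher in Met-Met than in Met, beside 28.2%, 20.2% and 11.6% of all genes. One of the genes that fell in each comparison with Control was Por, already counted among the outputs. Pdxk, the kinase that makes the active form of vitamin B6, was at 22.0 in Control, 14.4 in Met and 32.7 in Met-Met. It fell in Met (−0.63, adjusted p = 0.0495) and was higher in Met-Met than in Met (1.20, SE 0.22, adjusted p = 0.00666). Ces1d, a carboxylesterase, was at 22.4, 21.0 and 10.9 and fell in Met-Met (−1.11, adjusted p = 0.0353). With the adipocyte covariate its change was 0.61 and was not called (adjusted p = 0.373). Gclc, a subunit of the enzyme that starts glutathione synthesis, went from 7.40 to 9.19 in Met (0.28, adjusted p = 0.0306). On FPKM as deposited the change of Gclc was 0.000151 and was not called (adjusted p = 0.999). The calls of Pdxk and Gclc in Met and of Ces1d in Met-Met were each lost when 1 of several single libraries was left out, with adjusted p up to 0.135. With the adipocyte covariate 0 of the 3 targets called in Met remained (Pdxk, adjusted p = 0.338, and Gclc, adjusted p = 0.284, beside Por). None of the 2 called in Met-Met against Control remained, while Pdxk in Met-Met against Met did.

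The genes whose pattern over the 12 libraries was most like that of Arntl were chosen among 10199 genes with a mean of at least 2 scaled FPKM, by Pearson's correlation of log2 values. They were Npas2 (0.96), Slc3a2 (0.96), Sod2 (0.93), Sowahb (0.93), Stk40 (0.93) and Tchh (0.93), and the most opposite were Setd1b (−0.94), Lrch1 (−0.93), Ube2o (−0.93), Fam216a (−0.93), Ogn (−0.92) and Ahnak (−0.92). For Dbp they were Sh2b1 (0.91), C2cd5 (0.91), Matn2 (0.90), Igip (0.90), Zfp990 (0.90) and Mtss1l (0.89), and at the other end Ccz1 (−0.96), Sfrp1 (−0.95), Ftl1 (−0.95), Sec62 (−0.95), Actr2 (−0.94) and Trappc3 (−0.94). Among the clock genes themselves, Arntl came nearest to Cry1 (0.85) and farthest from Nr1d1 (−0.63), and Dbp nearest to Tef (0.78) and Nr1d1 (0.73). All points share libraries and group differences, so these values describe a likeness and nothing more.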

How the data were processed

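The authors deposited FPKM per transcript, 1 table per library, for 55869 protein-coding transcripts. Per the submitters' processing notes, the tools included StringTie 1.3.1, HISAT2 2.0.4 and Bowtie2 2.2.8. Builds mm9 and GRCm38 are both named there, and which tool used which is not given in the sources used here. From these values FPKM were summed per gene, and a factor for each library (0.835 to 1.23) was taken as the median, over tested genes, of its values relative to the gene's mean. In R 4.3.3, limma 3.58.1 fitted 3 group means with an intensity trend to log2(scaled FPKM + 1) of all 12 libraries. P-values were adjusted by Benjamini-Hochberg over the 11770 genes whose mean was 1 or more, and 0.05 was the threshold. A 0 in any library was listed for 50 of them. Relative depth was read from genes with 1 transcript under 0.06 FPKM. It rests on 9 to 39 genes per library. The fit was tested on simulated data. Python 3.11.15 (pandas 2.3.3, matplotlib 3.10.9, numpy 2.4.6) was used for promoter searches, tables and figures.

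The members and gene lists were chosen with earlier results of these data known. The text names the 10 clock genes, tested genes of the further core clock, called genes of the other lists, and the 6 genes most like and most unlike Arntl and Dbp. One gene of the lists is not reported here and is left out of their counts. Alternatives were other scalings, pseudocounts, minimums, libraries and covariates, the highest transcript alone, and single libraries left out. The counts and called genes of the further lists under these alternatives were added after the data were seen. Coordinates and promoter sequences are from RefSeq tables, since the deposited tables hold none.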

Additional observations from a re-analysis of the deposited data

Results flagged for a closer look

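In each group of 4 libraries, the highest and lowest library was compared with the others for the 18 tested core clock genes, 54 groups in all. The measure was the gap to the nearest library over the range of the group, set against Dixon's 95% limit for 4 values, which chance exceeds in about 1 group of 20. It was exceeded in 3 of the 54. Per2 in Met-Met 4 stood at 2.23 scaled FPKM, below the other Met-Met libraries at 3.33 to 3.55 (gap over range 0.83, just past the limit). Per3 in Met 3 stood at 2.35, below the other Met libraries at 3.11 to 3.20 (0.892). Bhlhe40 in Control 1 stood at 9.30, below the other Control libraries at 14.8 to 15.1 (0.950). Met 3 carried 9305 FPKM of Gm26917 and Control 1 carried lymphocyte markers, and the part of either in these values was not tested.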

How the results depend on the processing

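Of 705 values from 24 alternatives for the 30 log2 fold changes of the clock genes, 636 kept direction and side of the threshold, 27 lost the call, 18 gained one and 24 changed sign. The cause of each was not tested. Counts are given in the order Met against Control, Met-Met against Control, Met-Met against Met (clock genes 4, 3 and 2, all genes 3322, 2374 and 1370, further core clock genes 5, 1 and 2).

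Leaving out single libraries, clock genes called ranged over 4 to 5, 3 to 4 and 0 to 2, all genes over 2107 to 3534, 1306 to 2715 and 667 to 2306, and further core clock genes over 4 to 6, 1 to 3 and 2 to 4. All genes called were fewest without Control 1 (2107 and 1306) and Met-Met 4 (667), and were 2147 and 1359 without Control 2, and 817, 802 and 2306 in the last comparison without Met 1, Met 3 and Met 4. Further core clock genes in Met-Met were 3 without Control 4 and 2 without Met 2 or Met 4, and in Met-Met against Met 4 without Control 4. Log2 fold changes ranged from −0.0930 to 0.0497 for Per3 and −0.192 to 0.0878 for Tef in Met, and from −0.249 to 0.116 for Nr1d1 and −0.186 to 0.00726 for Per3 in Met-Met against Met.

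In the 6 libraries without lymphocyte markers clock genes called were 0 in each comparison (3 at an unadjusted p under 0.05), all genes 7, 3 and 455, and further core clock genes 0 against Control, with Tef at 0.0411 in Met, Cry2 at 0.11 in Met-Met and Nr1d1 at 0.34 between the methionine groups. With the adipocyte covariate clock genes were 1 and 0 and all genes 181 and 14 against Control, further core clock genes 1 and 0, Cry2 0.12 and Ces1d 0.61 in Met-Met. In the 9 libraries with low Gm26917 clock genes were 5 in Met-Met against Control. In Met-Met against Met, where 910 genes were called, the 1 clock gene called was Nr1d2 (−0.84, adjusted p = 0.0451), and not Cry1 or Per2. In that fit Per3 was 0.0458, Tef 0.0246 and Nr1d2 0.115 in Met. The 8 libraries of a comparison alone gave 5 clock genes and 2 further genes in Met-Met against Control, and 1 clock gene and 749 genes against Met.

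FPKM as deposited moved the median of all genes by −0.25, −0.12 and 0.15. It called 352 genes higher and 4299 lower in Met, 499 and 1583 in Met-Met, and 1556 and 274 between them, with 0 clock genes in the last (1 at an unadjusted p under 0.05), and 3 further genes in Met. Clock was −0.13, Cry2 −0.0497 and Csnk1a1 −0.0653 in Met, Per3 0.0527 and Nr1d1 0.10 in Met-Met against Met. Quantile normalization gave Per3 0.143 in Met and 0.0582 in Met-Met, and 2 further genes in Met-Met. A pseudocount of 0.1 gave Nr1d1 0.00574 in Met-Met against Met. A minimum mean of 5, which tests fewer genes, called 2191 genes in Met and 2, 1 and 1 clock genes. The highest transcript per gene gave Arntl −0.26 and 2 further genes in Met-Met against Control, and 1 further gene and Sirt1 1.03 in Met-Met against Met. With the replicate number as a block, 846 genes and 1 clock gene were called in Met-Met against Met. Correlations of same-numbered libraries, taken on deviations from group means, ran from −0.41 to 0.17. With 4 libraries a group they cannot show whether a number stands for a shared batch. The unknown number of reads limits all low values.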
